A study of Caenorhabditis elegans with 8 samples.

Results

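The 10 genes described here encode enzymes that remove superoxide and peroxide, and the transcription factor skn-1. They are the 5 superoxide dismutase genes sod-1 to sod-5, the 3 catalase genes ctl-1, ctl-2 and ctl-3, the peroxiredoxin gene prdx-2, and skn-1. They were chosen by name, and each of the 10 matched 1 of the 20392 genes of the count table by its WormBase identifier. The samples were intestines dissected from adults of the nematode Caenorhabditis elegans, all of the wild-type strain N2(Bristol). The 4 fed libraries (labelled non-starved) came from animals grown on OP50 bacteria to day 1 of adulthood. The 4 fasted libraries (labelled starved) came from such animals after 12 h in M9 buffer, a salt solution without food, on a roller at 20 °C. The labels give 12 h as the time of both groups, and a protocol label mentions auxin plates, which neither the design text nor the study's methods give for these animals. According to the methods, 30 intestines were collected per condition, so that each library holds a pool of animals. Lack of food, incubation in buffer and the older age of the fasted animals cannot be told apart in this design.

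Superoxide dismutases turn superoxide, a by-product of respiration, into hydrogen peroxide, and catalases and peroxiredoxins break the peroxide down. In C. elegans, sod-1 encodes the main cytosolic copper/zinc enzyme and sod-5 a minor one, sod-2 and sod-3 encode mitochondrial manganese enzymes, and sod-4 an extracellular form. ctl-1 encodes a cytosolic and ctl-2 a peroxisomal catalase. skn-1 encodes the worm counterpart of the mammalian Nrf factors, which acts in the intestine among other tissues and turns on genes for detoxification and glutathione synthesis. sod-3 is widely used as a reporter of the FOXO factor daf-16, which acts in insulin signalling.

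Levels below are RPM values, a gene's count scaled to 1000000 counts in the library. The libraries held 20964161 to 26372847 counts when fed and 25310202 to 33846215 when fasted, so that 3 counts, taken here as the floor of detection, corresponded to 0.0886 to 0.143 RPM. Intervals and floors cover counting error only. Genes were tested with the quasi-likelihood test of edgeR over 7379 genes that passed a filter on low counts, and a gene was called at a Benjamini-Hochberg adjusted P value (FDR) under 0.01 and a fold change over 1.5. Scaled by total counts, the tested genes had a median log2 fold change (fasted over fed) of 1.23. With TMM factors, which centre the bulk of genes, it was 0.16, a shift of 1.07. The 6 vitellogenin (yolk protein) genes took 71.8% to 73.2% of the counts in fed and 66.5% to 67.8% in fasted libraries. The summed level of 12 intestine markers went from 7826 to 8680 RPM in fed to 3175 to 4270 RPM in fasted libraries, with 3 of the 12 called higher and 7 lower (0 and 9 under TMM), and none was at 0. Markers of other tissues were uneven among the fasted libraries. For 10 markers of body wall muscle the sum was 9.86 to 13.01 RPM in the fed group and 937, 60.3, 22.7 and 1337 RPM in fasted libraries 1 to 4. The 9 pharynx markers went from 0.668 to 2.16 RPM to 192, 9.09, 9.92 and 371 RPM, and the 11 neuron markers from 9.48 to 13.6 RPM to 65.3, 17.7, 17.2 and 79.3 RPM. The 13 germline and oocyte markers, at 2.24 to 8.33 RPM in fed libraries, were highest in fasted library 2 (414 RPM, against 37.4 to 114 in the others). The 10 hypodermis markers reached 372 RPM in fasted library 1 and 18.1 to 98.6 in the others, against 11.7 to 81.1 in fed libraries, and the 7 sperm markers stayed below 1 RPM in every library. The muscle, pharynx, neuron and germline sums did not overlap between the groups, whereas the hypodermis and sperm sums did. In every fed library 1 muscle, 4 pharynx, 4 neuron, 1 germline, 3 hypodermis and 4 sperm markers were at 0. Where these sums move with a member they are named beside it, and their part in its values was not tested.

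The catalase genes ctl-2 and ctl-1 rose in fasted intestines under both scalings. ctl-2 (WBGene00000831) stood at 97.3, 86.4, 89.5 and 86.8 RPM in fed libraries 1 to 4 and at 259, 303, 308 and 278 RPM in fasted libraries 1 to 4. Every fasted library lay above every fed one, and the 4 fed libraries were within a narrow range. The log2 fold change was 1.67 (SE 0.111, edgeR FDR 5.27e-07), a 3.19-fold increase, or 0.44 above the median of all genes. With TMM factors it was 0.60 (SE 0.120, FDR 0.00146). ctl-1 (WBGene00000830) went from 4.63, 4.198, 3.30 and 4.10 RPM in fed libraries to 15.3, 20.03, 19.6 and 14.9 RPM in fasted ones. Its groups did not overlap either, and its log2 fold change was 2.10 (SE 0.186, edgeR FDR 3.63e-06), or 1.03 with TMM factors (SE 0.198, FDR 0.00118). Both genes were called in all 20 fits, which differed in scaling, test, filter, pairing or the libraries left out. In both, fasted libraries 2 and 3 were higher than fasted libraries 1 and 4, the pair with the most muscle and pharynx markers. In bulk tissue, more RNA per cell and a change in the share of cells cannot be told apart.

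The 3 catalase genes lie next to each other on the minus strand of chromosome II, with no other annotated gene between them. In the WBcel235 build, a later one than the ce10 build of the alignments, ctl-2 spans 14299556 to 14302027, ctl-1 14303568 to 14306260 and ctl-3 14307798 to 14310779. All 3 are protein-coding. They are closely similar in sequence, so that reads matching more than 1 copy were not counted and the split among them is uncertain. Of the catalase counts, ctl-2 held 95.6% ± 0.566 when fed and 94.2% ± 0.527 when fasted (SD, n = 4). ctl-3 (WBGene00013220) had 8, 0, 0 and 0 counts in fed and 10, 10, 6 and 0 counts in fasted libraries, did not pass the filter and was not tested. The sum of the 3 genes went from 94.1 ± 5.47 to 305 ± 25.2 RPM (SD, n = 4), and from 137 ± 8.82 to 210.5 ± 25.2 RPM with TMM factors. The exons of ctl-2 share 65 bp with Y54G11A.7 on the other strand, which was itself higher in every fasted library (48.0 to 57.1 against 21.2 to 28.2 RPM). Its part in the value of ctl-2 was not tested.

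**Figure D1:**
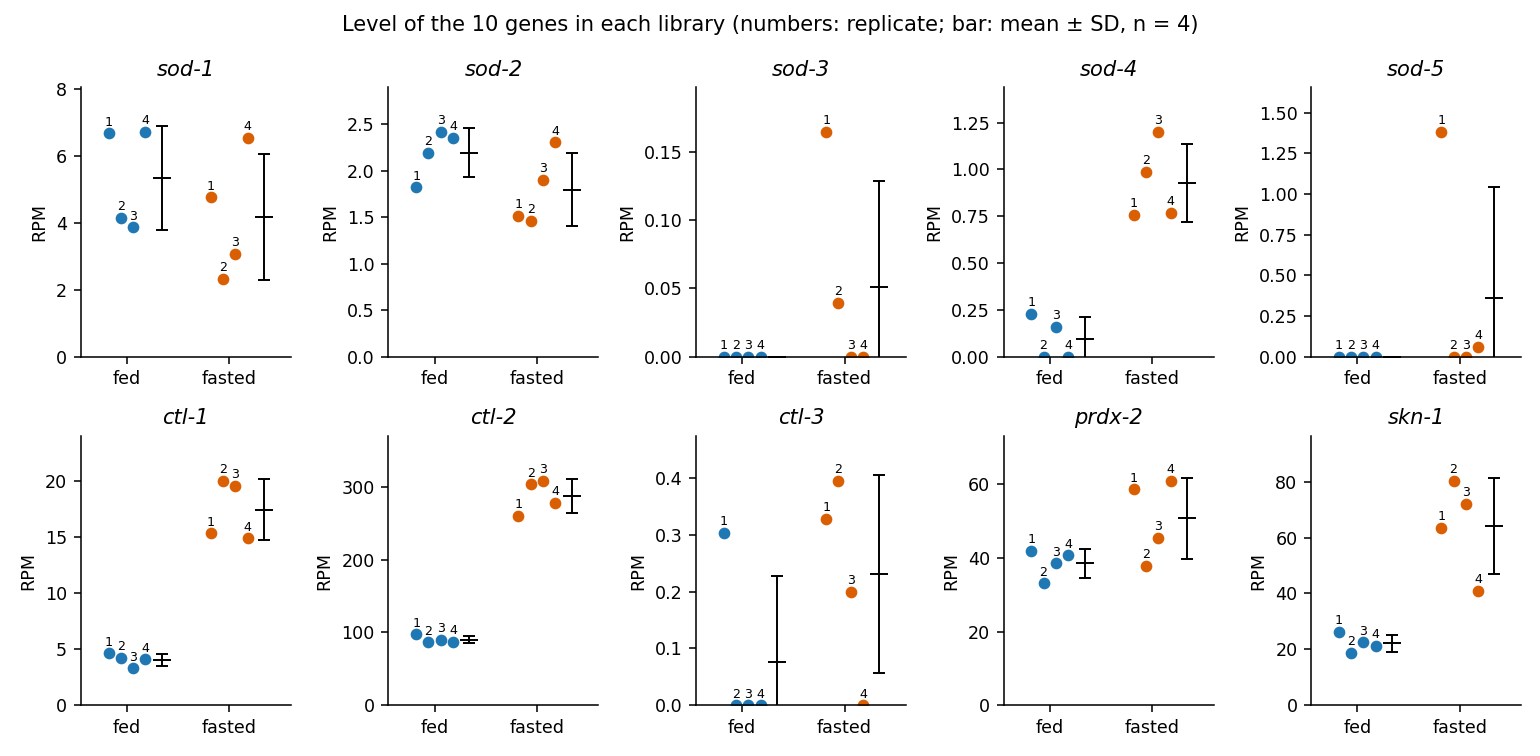
Each panel shows 1 gene, with RPM on a linear axis from 0, one point per library (fed in blue, fasted in orange, numbered by replicate) and the mean ± SD to the right of the points. ctl-1, ctl-2, sod-4 and skn-1 have no overlap between the groups, while the other 6 genes overlap, and sod-5 rests on fasted library 1 (1.38 RPM).

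The main superoxide dismutase genes were not called by total counts. sod-1 (WBGene00004930; chromosome II) stood at 6.68, 4.15, 3.86 and 6.71 RPM in fed libraries and at 4.76, 2.33, 3.06 and 6.53 RPM in fasted ones. Both groups spread widely and overlapped, and in each the libraries numbered 1 and 4 were the highest. The log2 fold change was −0.36 (SE 0.333, edgeR FDR 0.342) by total counts and −1.44 (SE 0.326, FDR 0.00326) with TMM factors, under which sod-1 was called lower. The fasted libraries with the most sod-1 were again 1 and 4, at a mean of 5.65 RPM against 2.70 RPM in libraries 2 and 3, and their muscle, pharynx and neuron marker sums were the highest. Without these libraries, an alternative chosen after seeing the data, the value was −0.99 by total counts (FDR 0.0289) and −2.04 with TMM factors (FDR 0.00128). This leaves out its highest fasted values (4.76 and 6.53 RPM) but keeps the highest fed ones, so that a lower value was built in. Over all 20 fits the FDR of sod-1 ranged from 4.73e-05 to 0.646. sod-2 (WBGene00004931; chromosome I), the constitutive mitochondrial enzyme gene, went from 1.82, 2.19, 2.41 and 2.35 RPM to 1.51, 1.46, 1.90 and 2.30 RPM. Its groups overlapped, with a log2 fold change of −0.29 (SE 0.258, edgeR FDR 0.322), and it too was called lower with TMM factors (−1.36, SE 0.249, FDR 8.53e-04). On the other strand, the exons of sod-1 share 85 bp (11.8%) with C15F1.13, which was not counted, and those of sod-2 share 21 bp with dpt-1. dpt-1 was at 1.48 to 2.20 RPM in fed and 2.41 to 4.76 RPM in fasted libraries. The part of these overlaps was not tested. The library sum of all 5 sod genes was 7.64 ± 1.45 RPM in fed and 7.30 ± 2.21 RPM in fasted intestines (SD, n = 4), a difference smaller than the spread between replicates by total counts. With TMM factors the same sum was 11.1 ± 2.07 and 5.01 ± 1.417 RPM (SD, n = 4), lower in every fasted library (exact two-sided permutation P = 0.0286).

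The other sod genes were rare. sod-4 (WBGene00004933; chromosome III), for the extracellular enzyme, had 6, 0, 4 and 0 counts in fed libraries and 23, 25, 36 and 26 counts in fasted ones, or up to 0.228 RPM against 0.755 to 1.199 RPM. The groups did not overlap, and it was called higher by total counts (log2 fold change 3.15, SE 0.759, edgeR FDR 0.00321). It passed the filter only through the fasted libraries, so that a difference was built in. The call was lost with TMM factors (2.13, FDR 0.0346) and when fed library 2, 3 or 4 or fasted library 3 was left out (2.80, 3.47, 2.75 and 3.01, FDR 0.01003 to 0.01048). Over all 20 fits its FDR ranged from 4.60e-05 to 0.0861. The exons of sod-4 share 175 bp, or 13.4% of their length, with ctr-9 on the opposite strand. ctr-9 was at 5.63 to 9.21 RPM in fed and 21.4 to 30.8 RPM in fasted libraries, and its part in the counts of sod-4 was not tested. sod-3 (WBGene00004932; chromosome X) had 0 counts in all 4 fed libraries and 5, 1, 0 and 0 counts in fasted libraries 1 to 4. The 5 counts correspond to 0.164 RPM (95% exact binomial interval 0.0533 to 0.383). The other fasted libraries were under the floor of 3 counts, which was 0.114 to 0.143 RPM in the fed libraries. The exons of sod-3 share 65 bp with C08A9.3 and 24 bp with lido-1, both on the other strand. lido-1 was at 0 to 0.322 RPM in fed and 0.295 to 0.887 RPM in fasted libraries, and C08A9.3 was at most 0.0395 RPM. Their part in the counts of sod-3 was not tested. sod-5 (WBGene00007036; chromosome II) had 0 counts in every fed library and 42, 0, 0 and 2 counts in the fasted ones. Fasted library 1 alone carried it, at 1.38 RPM (0.994 to 1.86), while the rest of the fasted group was at or under the floor of 3 counts. No fold change is given for sod-3 and sod-5. Among the fasted libraries, muscle, pharynx and neuron sums were highest in library 4 and hypodermis sums in library 1. The part of these tissues in the counts of sod-5 was not tested.

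prdx-2 (WBGene00006434; chromosome II), whose peroxiredoxin reduces peroxide with thiols, was the second most abundant member per length. It stood at 41.9, 33.1, 38.5 and 40.6 RPM in fed libraries and at 58.5, 37.9, 45.3 and 60.9 RPM in fasted ones. The groups overlapped through fasted library 2, and fasted libraries 1 and 4 were again the highest. The log2 fold change of 0.40 (SE 0.174, edgeR FDR 0.0583) was not called by total counts, and turned to −0.68 (SE 0.161, FDR 0.00425), a call of lower, with TMM factors. Relative to the median of all genes it was −0.83. Its direction thus rests on the scaling.

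skn-1 (WBGene00004804; chromosome IV, 5651039 to 5660384 on the minus strand in WBcel235, with 4 annotated transcripts) was higher in fasted intestines by total counts. It stood at 26.2, 18.7, 22.5 and 21.3 RPM in fed libraries and at 63.4, 80.3, 72.1 and 40.8 RPM in fasted ones. All fasted libraries were above all fed ones, and fasted library 4, with the most muscle and pharynx markers, was the lowest of them. The log2 fold change was 1.53 (SE 0.211, edgeR FDR 8.15e-05), a 2.90-fold increase that lies 0.30 above the median of all genes. With TMM factors it was 0.47 and not called (SE 0.207, FDR 0.0766). Without fasted libraries 1 and 4, an alternative chosen after seeing the data, it was called under both scalings (1.78, FDR 4.73e-05, and 0.71, FDR 0.00637). This leaves out its lowest fasted values (63.4 and 40.8 RPM), so that a larger fold change was built in. Over all 20 fits its FDR ranged from 4.14e-11 to 0.110. The counts are per gene, so that its transcripts were not told apart. Its exons share 41 bp with csn-5 on the other strand, at 0.607 to 1.29 RPM in fed and 3.55 to 5.20 RPM in fasted libraries.

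In all, 7 of the 10 genes were tested. By total counts 4 of them (sod-4, ctl-1, ctl-2 and skn-1) were called higher and 0 lower, beside 52.9% of all tested genes called higher and 9.97% lower. With TMM factors 2 (ctl-1 and ctl-2) were called higher and 3 (sod-1, sod-2 and prdx-2) lower, beside 19.6% and 21.5% of all genes. The groups of RPM values did not overlap for 4 genes, all higher, beside 58.5% of all tested genes higher and 11.1% lower. The median of the tested members was 1.53, against 1.23 for all genes, and 0.47 against 0.16 with TMM factors. It includes sod-4, which passed the filter only through the fasted libraries. Without sod-4 the median would lie midway between prdx-2 (0.40) and skn-1 (1.53), below that of all genes. The same holds with TMM factors (−0.68 and 0.47). The share of members called higher was near this background under total counts. The order among them, with sod-4, ctl-1, ctl-2 and skn-1 above and prdx-2, sod-2 and sod-1 below the median of all genes, was the same under both scalings. TMM factors move all genes by nearly the same step, so that this order could hardly change. In single exact two-sided permutation tests of RPM, without adjustment, ctl-1, ctl-2 and skn-1 each gave P = 0.0286, the smallest that 70 relabellings allow. After Benjamini-Hochberg adjustment over the 10 members each of the 3 was at 0.0714. With TMM factors the unadjusted exact P was 0.143 for skn-1 and again 0.0286 for ctl-1 and ctl-2. The counts above include sod-4, both as called higher and as not overlapping. Its separation was built in by the filter and is a description only.

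**Figure D2:**
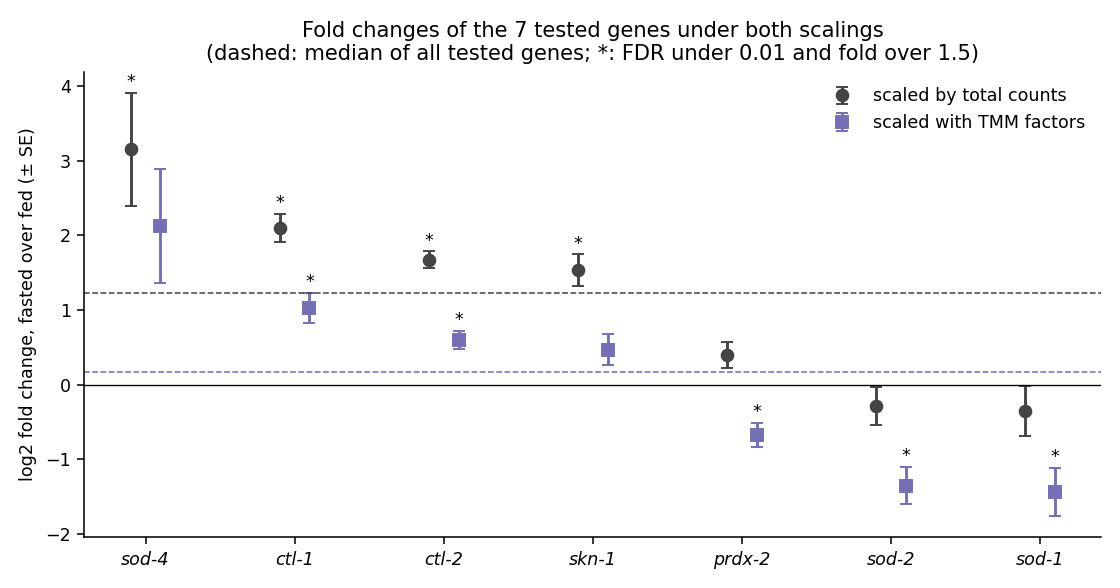
Log2 fold changes (fasted over fed, ± SE) of the 7 tested genes by total counts (circles) and with TMM factors (squares), with dashed lines at the medians of all tested genes (1.23 and 0.16) and asterisks on called values. The scaling moves each gene down by about the same step, and only ctl-1 and ctl-2 are called higher under both.

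Levels of different genes can be compared only per length, and were set side by side as RPKM, RPM per kilobase of summed exon length. In fed intestines the order was ctl-2 (52.8 to 59.4 RPKM), prdx-2 (37.7 to 47.8), sod-1 (5.28 to 9.17), skn-1 (5.82 to 8.17), ctl-1 (2.14 to 3.00) and sod-2 (2.09 to 2.77). The fed ranges of sod-1 and skn-1 overlapped, as did those of ctl-1 and sod-2, whereas ctl-2 and prdx-2 did not overlap each other or any other member. sod-4, ctl-3, sod-3 and sod-5 were at most 0.217 RPKM in these libraries. In fasted intestines ctl-2 (158 to 188 RPKM) was farther above prdx-2 (43.2 to 69.4). skn-1 (12.7 to 25.1) and ctl-1 (9.65 to 12.98) were now above sod-1 (3.18 to 8.92), with skn-1 and ctl-1 overlapping through fasted library 4. sod-2 (1.68 to 2.65) stayed below sod-1. Among the 7379 tested genes, the mean RPKM of ctl-2 was at percentile 95.7 when fed and 98.0 when fasted, and that of sod-1 at 82.1 and 68.6.

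**Figure D3:**
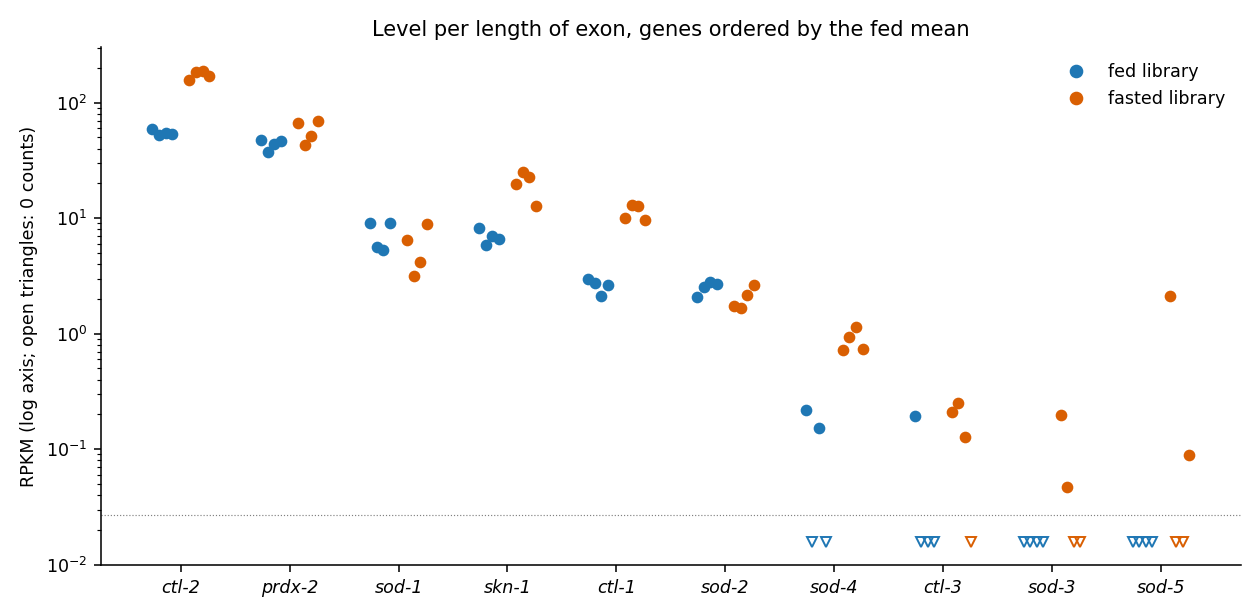
RPKM of each gene on a log axis, one point per library (fed in blue, fasted in orange), with genes ordered by the fed mean and libraries with 0 counts drawn as open triangles below the dotted line. ctl-2 and prdx-2 lead in both groups, and skn-1 and ctl-1 lie above sod-1 in fasted libraries (12.7 to 25.1 and 9.65 to 12.98 against 3.18 to 8.92 RPKM).

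The ratio of 2 genes within a library does not depend on how libraries are scaled, and 8 pairs were compared between the groups by exact two-sided permutation tests of the log2 ratio of counts, with 0.5 added to each count. The counts of ctl-2 relative to sod-1 were higher in every fasted library. ctl-2 had 14.6, 20.8, 23.2 and 12.9 times the counts of sod-1 in fed libraries and 54.5, 130.0, 101 and 42.5 times in fasted ones, with no overlap (difference 2.09 on the log2 scale, exact P = 0.0286, 0.0571 after Benjamini-Hochberg adjustment over the 8 pairs). Relative to ctl-2, ctl-1 went from 3.69% to 4.86% of its counts when fed to 5.36% to 6.61% when fasted (difference 0.43, exact P = 0.0286, adjusted 0.0571). The log2 ratio of sod-4 to sod-1 was higher by 4.21 in fasted libraries (exact P = 0.0286, adjusted 0.0571), with 2 fed libraries at 0 counts of sod-4. With 5 counts added in place of 0.5 the difference was 2.32 (exact P = 0.0286), so that its size depends on the count added. skn-1 had 46.1% to 69.2% of the counts of wdr-23 when fed and 124% to 253% when fasted, a difference of 1.87 (P = 0.0286, adjusted 0.0571). wdr-23 encodes the adaptor that directs the SKN-1 protein to degradation. prdx-2 differed from sod-1 by 0.80 with overlapping groups (P = 0.0571, adjusted 0.0762). The ratios of sod-5 to sod-1 (2.33, exact P = 0.0571), sod-3 to sod-2 (1.29, P = 0.371) and ctl-3 to ctl-2 (0.15, P = 0.83) rest on genes at or near the floor. The pairs ctl-2/sod-1, ctl-1/ctl-2 and skn-1/wdr-23 reached the smallest P value that 4 against 4 libraries allow, as did sod-4/sod-1, whose separation the filter built in. None of the 8 pairs passed 0.05 after adjustment.

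**Figure D4:**
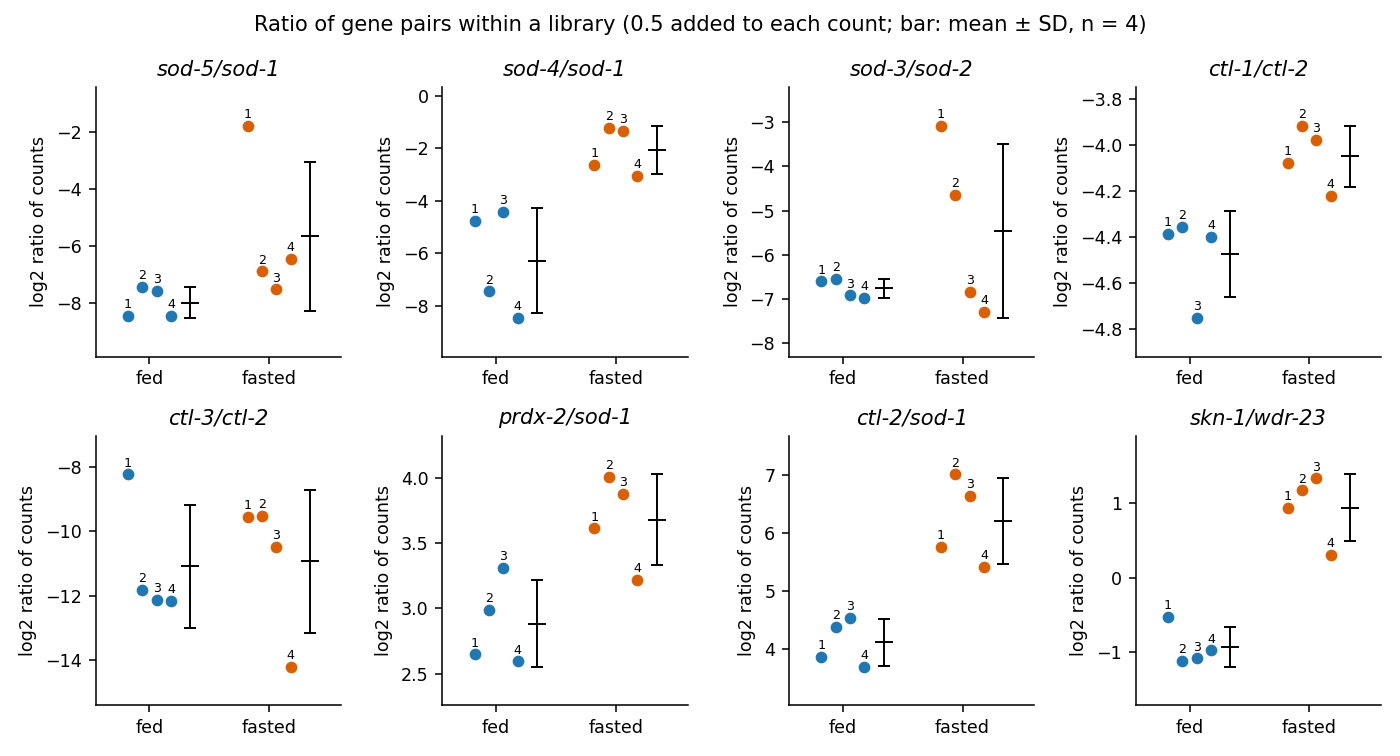
Log2 ratio of counts within each library for the 8 gene pairs (fed in blue, fasted in orange, numbered by replicate, bar at mean ± SD, n = 4, axes not starting at 0). The groups do not overlap for sod-4/sod-1, ctl-1/ctl-2, ctl-2/sod-1 and skn-1/wdr-23, where the fasted libraries are higher by 4.21, 0.43, 2.09 and 1.87. The value of sod-4/sod-1 is 2.32 with 5 counts added.

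Genes that work with these enzymes were followed in 5 lists. Of 24 genes of the thiol and peroxide systems (thioredoxins, glutaredoxins, glutathione synthesis and peroxidases), 17 were tested, and 4 were called higher and 3 lower, or 1 and 5 with TMM factors. These are 23.5% and 17.6% by total counts, beside 52.9% and 9.97% of all tested genes (19.6% and 21.5% with TMM factors). Their median was 0.53, below that of all genes. msra-1, which repairs oxidized methionine, fell from 81.3 ± 13.98 RPM in fed to 3.00 ± 1.08 RPM in fasted intestines (SD, n = 4; log2 −4.75, SE 0.266, edgeR FDR 1.82e-07) and was lower under TMM too (−5.83). The glutathione peroxidase homologues gpx-1 (−2.32, SE 0.395, edgeR FDR 3.51e-04) and gpx-7 (−1.36, SE 0.277, edgeR FDR 0.00118) also fell under both scalings. gpx-6 had 0 counts in all fed libraries and 1.35 ± 0.318 RPM in fasted ones (SD, n = 4), at least 11.02-fold higher when the fed level is set to 3 counts per library, and passed the filter only through the fasted libraries. prdx-6, also called higher by total counts only, was over the filter level in 3 fed and 4 fasted libraries, so that it too passed only through the fasted ones. gcs-1, for the rate-limiting enzyme of glutathione synthesis and a classic target of skn-1, went from 6.66 ± 1.06 to 11.1 ± 1.61 RPM (SD, n = 4), a log2 fold change of 0.73 (SE 0.184, edgeR FDR 0.00414) that turned to −0.33 and was not called under TMM.

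Of the 8 tested among 14 skn-1 target genes, 4 were called higher and 2 lower, with a median of 0.69. The 4 include nit-1, which had at most 4 counts in a fed library. It passed the filter only through the fasted libraries, so that a difference was built in. The share called higher, 50%, was near the 52.9% of all genes, and 25.0% were lower, beside 9.97%. Under TMM 0 were higher and 3 lower, beside 19.6% and 21.5% of all genes. The glutathione S-transferase gene gst-4, a common reporter of skn-1 activity, fell from 12.1 ± 2.60 RPM to 2.02 ± 0.325 RPM (mean ± SD of 4 libraries, log2 change −2.58, SE 0.219, edgeR FDR 2.72e-06), and gst-10 from 15.5 ± 5.35 to 2.47 ± 0.487 RPM (−2.65, SE 0.278, edgeR FDR 1.18e-05). Both were lower under TMM as well, while skn-1 itself had a positive log2 fold change under both scalings. gst-13 (0.71) and gst-5 (1.58) were called higher by total counts only, with values of −0.37 and 0.51 under TMM.

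Of 13 genes that regulate skn-1, 6 were called higher and 1 lower by total counts, and 4 higher and 3 lower under TMM. The shares by total counts, 46.2% and 7.69%, were near the 52.9% and 9.97% of all genes (19.6% and 21.5% under TMM). In the p38 kinase cascade that phosphorylates SKN-1, nsy-1 rose from 4.50 ± 0.967 RPM to 40.6 ± 2.94 RPM (mean ± SD of 4 libraries, log2 change 3.17, SE 0.188, edgeR FDR 2.56e-07), sek-1 fell from 13.5 ± 3.63 to 6.02 ± 1.59 RPM (−1.16, SE 0.246, edgeR FDR 0.00146), and pmk-1, the p38 kinase, had a value of 0.25 and was not called (edgeR FDR 0.469). nsy-1 and sek-1 kept these calls under TMM, at 2.10 and −2.23. mdt-15, a Mediator subunit that works with SKN-1, rose from 17.8 ± 3.07 to 70.3 ± 1.59 RPM (1.98, SE 0.151, edgeR FDR 1.29e-06), and sgk-1 rose too (1.86, edgeR FDR 5.82e-06), both under both scalings. hcf-1 (0.0902 ± 0.0780 RPM in fed and 1.24 ± 0.418 RPM in fasted libraries, SD, n = 4) is among the genes called higher, but passed the filter only through the fasted libraries, so that a difference was built in. wdr-23 was not called by total counts (−0.37, edgeR FDR 0.0289) and was lower under TMM (−1.45).

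Among daf-16 and its targets, 4 of 10 tested genes were called higher and 2 lower, or 2 and 3 under TMM. By total counts 40.0% were higher and 20.0% lower, beside 52.9% and 9.97% of all genes (19.6% and 21.5% under TMM). daf-16 itself went from 9.75 ± 2.04 to 31.0 ± 6.18 RPM (mean ± SD of 4 libraries, log2 change 1.67, SE 0.201, edgeR FDR 3.24e-05) and was not called under TMM (0.59, FDR 0.0180). The metallothionein gene mtl-1 rose from 0.544 ± 0.431 to 334 ± 117 RPM (SD, n = 4, 9.25, SE 0.559, edgeR FDR 2.91e-07), and icl-1, of the glyoxylate cycle, by 1.78, both under both scalings. mtl-1 had at most 30 counts in a fed library. It was over the filter level in 2 fed and 4 fasted libraries, so that it passed only through the fasted ones. lea-1, also among the 4 called higher, was over that level in 3 fed and 4 fasted libraries and passed in the same way. It was at 14.4, 7.78, 0.400 and 2.13 RPM in fasted libraries 1 to 4, against 0.228 to 0.910 RPM in fed ones. These groups overlapped, and lea-1 was not called under TMM. The small heat shock gene hsp-12.3 (−4.76, which passed the filter through the fed libraries) and gpd-2, for a glycolytic dehydrogenase (−1.56), fell under both. sod-3, counted in the same pathway, stayed at or near 0. None of the 11 genes for the import of proteins into peroxisomes, where the ctl-2 product resides, was called higher, and 1 was called lower (prx-11, from 7.59 ± 0.858 to 3.00 ± 0.456 RPM, SD, n = 4, −1.33, SE 0.189, edgeR FDR 9.98e-05). Their median was −0.14, and under TMM 6 were lower, beside 21.5% of all genes. prx-5, the import receptor, had a value of −0.15 by total counts (edgeR FDR 0.542) and was called lower under TMM (−1.23).

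**Figure D5:**
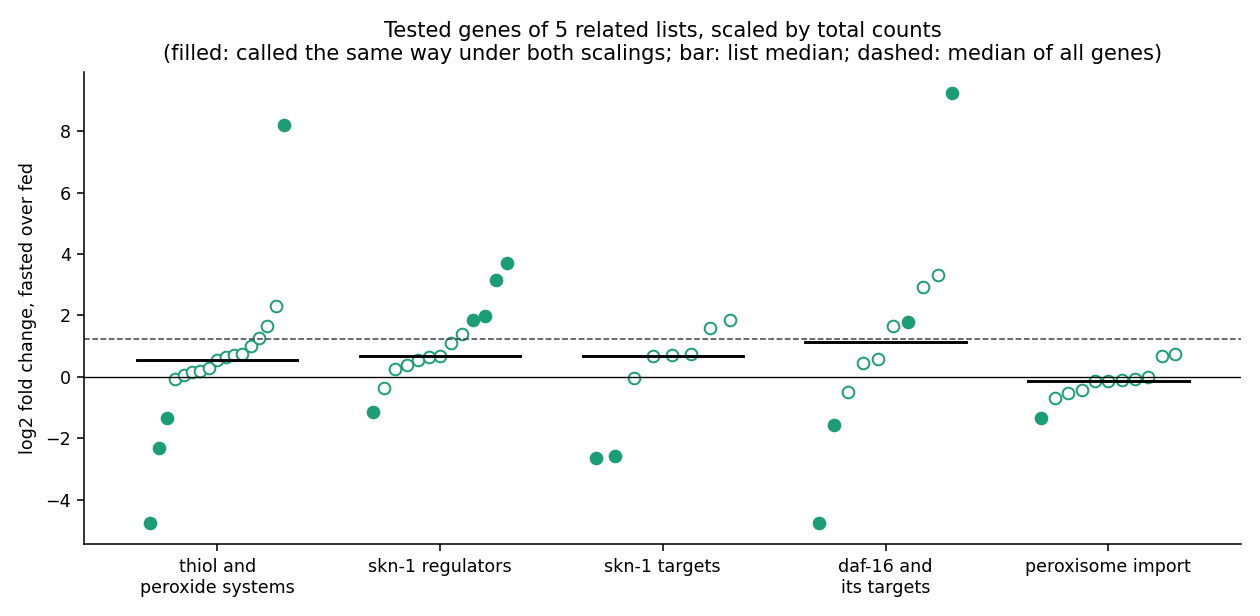
Log2 fold changes by total counts (fasted over fed) of the tested genes of 5 lists, one point per gene, filled where the gene was called in the same direction under both scalings, with bars at list medians and a dashed line at the median of all genes (1.23). All 5 list medians (0.53, 0.67, 0.69, 1.12 and −0.14) lie below the dashed line, and the topmost point of the first list, gpx-6, had 0 fed counts, so that its fitted value is no measure of its size.

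Over the 8 libraries, the genes whose log2(RPM + 0.5) was most like that of ctl-2 were hpo-15 (Pearson's r = 0.999), let-70 (0.999) and K07E3.4 (0.998), among 4882 genes averaging 50 counts or more. The pattern is a common one, with 2251 of these genes at r over 0.9, since the 2 groups set most of it. For skn-1 they were ain-1 (0.988), del-5 (0.986) and ugt-4 (0.986), with 1412 genes over 0.9. For sod-1 only 5 genes were over 0.9, led by cox-5A (0.927), vha-10 (0.919) and atp-2 (0.917). These values describe 8 libraries that share depth and group, and carry no test. sod-3 was left out of this because 6 of its 8 libraries had 0 counts.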

How the data were processed

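Polyadenylated RNA of dissected intestines was amplified (SMART-Seq, 9 PCR cycles from 10 ng RNA) and sequenced in 8 libraries. The deposited values are counts per gene, made by the authors with Trimmomatic 0.39, spliced alignment to the ce10 build through QuasR 1.42.1, unique reads only, and counting of reads in the orientation of WormBase exons. The chemistry is not stated to keep strand, so that reads of overlapping genes on opposite strands cannot be told apart. The deposited width, another column of the authors, is the summed exon length in bp. Columns matched libraries by title, with 0 unmatched. The labels call the libraries of a group biological replicates, and P values measure the spread between them. Within each group every library differed from the others by more than sampling noise.

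Symbols came from WormBase identifiers (19182 of 20392 found). Counts were compared with edgeR 4.0.16 (glmQLFit, glmQLFTest, filterByExpr with a minimum count of 10 and a minimum total of 15, total counts as library sizes, group as the only term) in R 4.3.3, following the study's scaling and thresholds (FDR 0.01, fold change 1.5). Alternatives were TMM factors, DESeq2 1.42.0, other filters, library sizes without vitellogenins, a replicate block, and leaving out libraries. The code was tested on simulated counts. The members, lists and named genes (all 10 members, and up to 4 genes a direction per list called under both scalings, plus wdr-23 and daf-16, plus the 3 most correlated genes of 4 members) were chosen with earlier results of these data known. Other genes were named after their values were seen: gcs-1, gst-5, gst-13, lea-1, nit-1, pmk-1, prdx-6, prx-5. Of the listed genes, dod-8 matched no identifier and hsp-16.1 matched 2 and was left out. No sequences were used here.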

Additional observations from a re-analysis of the deposited data

Results flagged for a closer look

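Single libraries lay far from the other 3 of their group, by Dixon's criterion, in 4 of 36 sets of 4 libraries, where chance flags about 5%. sod-5 was at 1.38 RPM (42 counts) in fasted library 1 and at most 0.0591 RPM in the other fasted libraries. ctl-3 was at 0.303 RPM (8 counts) in fed library 1 and at 0 in the other fed ones. The log2 ratio of ctl-3 to ctl-2, which rests on the same 8 counts, was −8.24 in fed library 1 and −12.2 to −11.8 in the others. The log2 ratio of ctl-1 to ctl-2 was −4.75 in fed library 3 and −4.40 to −4.36 in the other fed libraries, all below the fasted ones.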

How the results depend on the processing

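The calls of ctl-1 and ctl-2 held in all 20 fits. Those of sod-1, sod-2, prdx-2 and skn-1 changed only with fits that centre the bulk of genes. sod-4 was called in 8 of 20 fits, and its call was also lost with other filters and with libraries left out. The fits that centre the bulk of genes are given in the order TMM, DESeq2 size factors in edgeR, DESeq2 with its own size factors, replicate block with TMM, and TMM without fasted libraries 1 and 4 (chosen after seeing the data). Members called higher were 2, 2, 2, 2 and 3, and members called lower 3, 3, 3, 3 and 3. All genes called higher were 1448, 1445, 1748, 1316 and 943, and lower 1585, 1601, 1754, 1502 and 1338. The log2 fold change of sod-1 was −1.44, −1.45, −1.45, −1.49 and −2.04, that of sod-2 −1.36, −1.37, −1.37, −1.37 and −1.43, and that of sod-4 2.13, 2.13, 2.17, 2.398 and 2.38. The value of prdx-2 turned to −0.68, −0.69, −0.69, −0.70 and −0.94, and its RPM difference to −21.003 with TMM factors. skn-1 was at 0.47, 0.46, 0.46 and 0.43 and not called in the first 4. In the thiol and peroxide list 1, 1, 2, 1 and 1 genes were higher, and 5, 5 and 5 lower in the first 3. Among the regulators of skn-1, 2 were higher with the block and TMM and 3 without fasted libraries 1 and 4 and TMM, and 3, 3, 3, 3 and 2 were lower. Among the targets of skn-1, 0, 0, 0, 0 and 0 were higher. In the daf-16 list 2, 2 and 2 were higher with TMM, DESeq2 size factors and the block with TMM, and 1 without fasted libraries 1 and 4. In the peroxisome list 6, 6, 8, 6 and 6 were lower. By construction, these factors shift all genes together.

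With library sizes that leave out the vitellogenins, 2 regulators and 2 peroxisome genes were lower and 2 targets higher. Without fasted libraries 1 and 4 by total counts, 0 regulators were lower, 2 targets were higher and sod-4 was at 3.39 and not called. sod-4 was at 3.17 with no filter and 3.17 with a mean of at least 10 counts, not called in either. DESeq2 with total counts called 2 peroxisome genes higher. With 5 counts added, the ratio of ctl-3 to ctl-2 turned to −1.22, and the cause was not tested. Leaving out each library in turn, the targets called higher were 2 to 3 and the peroxisome genes called higher 0 to 2, and sod-4 ranged from 2.75 to 3.97 and was called in 4 of 8 fits.

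According to the methods, a fraction of the collected adults was dissected as fed and the rest were fasted, so that same-numbered libraries may share a culture. Same-numbered libraries deviated together with correlations of 0.04, 0.12, 0.08 and 0.19 over 4883 genes, and differently numbered ones with −0.21 to 0.20. The numbers were not taken as pairs in the main fit. With the replicate block by total counts, 4 members were higher and 0 lower, and the SE of sod-1 was 0.221 in place of 0.333 (log2 −0.41, edgeR FDR 0.120). Low counts limit sod-3, sod-4, sod-5 and ctl-3.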

Other observations

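Some genes of the related lists had counts mainly in fasted libraries and were not tested. gpx-4 had 0 counts in every fed library and 0.429 ± 0.139 RPM in fasted ones (SD, n = 4), at least 3.49-fold above the floor. gpx-3 had 0 counts in fed libraries and at most 57 in a fasted one, gpx-5 at most 4 and 58, and ugt-11 0 and 50. In fasted libraries 1 to 4, gpx-3 was at 1.87, 0.237, 0 and 1.68 RPM and gpx-5 at 1.90, 0.158, 0 and 0.916 RPM. ugt-11 was at 0, 0.158, 0 and 1.48 RPM, so that it rests on fasted library 4. Fasted libraries 1 and 4 had the most muscle and pharynx markers, whose part was not tested. The small heat shock gene hsp-12.6 had at most 4 counts in a fed and 7 in a fasted library, and gpx-8 had 0 counts in all 8 libraries.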
